A study of Mytilus coruscus with 2 samples.

Results

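Intron peaks close to a gene's start were taken from a ChIP-seq peak table of the digestive gland of the mussel *Mytilus coruscus*. They are the peaks that the table places in an intron, with a distance of 5000 bp or less to a transcription start site (TSS). There were 242 such peaks among 3465 peaks in all, which is 6.98% (Wilson 95% interval 6.18 to 7.88%), and among 1556 intron peaks, which is 15.6% (13.8 to 17.4%). ChIP-seq sequences the DNA fragments that an antibody recovers together with a protein, and the input is chromatin sequenced without that selection. Digestive gland cells fixed with formaldehyde gave 1 library of Nrf2 ChIP and 1 of input, with no treatment stated for either. The sources used here do not describe the antibody or say how many mussels went into each library. There were no replicates, so no value below has a replicate error, and a peak table of DNA holds no marker expression by which the tissue label could be checked. Intervals of shares, medians and pileups cover counting error alone, and neighbouring peaks are not independent of each other.

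Nrf2 is a basic leucine zipper transcription factor that pairs with small Maf proteins and binds antioxidant response elements near genes of antioxidant defence and detoxification. In vertebrates Keap1 holds it in the cytoplasm and directs its degradation, and oxidants or electrophiles release it. The digestive gland is the main organ of digestion, storage and detoxification in bivalves. In animal genomes the first introns often hold regulatory elements, and binding of transcription factors there is common.

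The 242 peaks belonged to 230 genes and lay 112 to 4998 bp downstream of the TSS, with a median of 2222.5 bp and quartiles of 1145 and 3392 bp. No intron peak of the table had a negative distance. Of the genes, 218 had 1 such peak, 12 had 2 and 0 had more. The peaks were found on all 14 chromosomes, with 10 on chromosome 14 and 30 on chromosome 1. They made up 4.00% of the peaks of chromosome 5 (11 of 275) and 9.95% of those of chromosome 9 (19 of 191), which were the lowest and the highest share. None lay on the unplaced sequences, which held 7 peaks of the table. The intervals of the 242 peaks covered 90397 bp together.

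The intron peaks were spread over the whole 5 kb and were fewest in its last part. There were 47 peaks in the first kb, which is 19.4% (14.9 to 24.9%), then 59, 58, 47 and 31 in the second to the fifth. Of the 388 peaks of any class up to 5 kb downstream of a TSS, the intron peaks made up 62.4% (57.5 to 67.0%) and the exon peaks 20.4% (16.7 to 24.6%). In the first kb, 47 of 96 downstream peaks were in introns and 38 in exons, and in the fifth kb 31 of 56 were in introns and 4 in exons. The promoter(1k) class took 9 peaks just downstream of the TSS, and no intron peak lay nearer than 112 bp. How much intron and exon sequence each kb holds was not measured, so these counts are not densities.

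**Figure D1:**
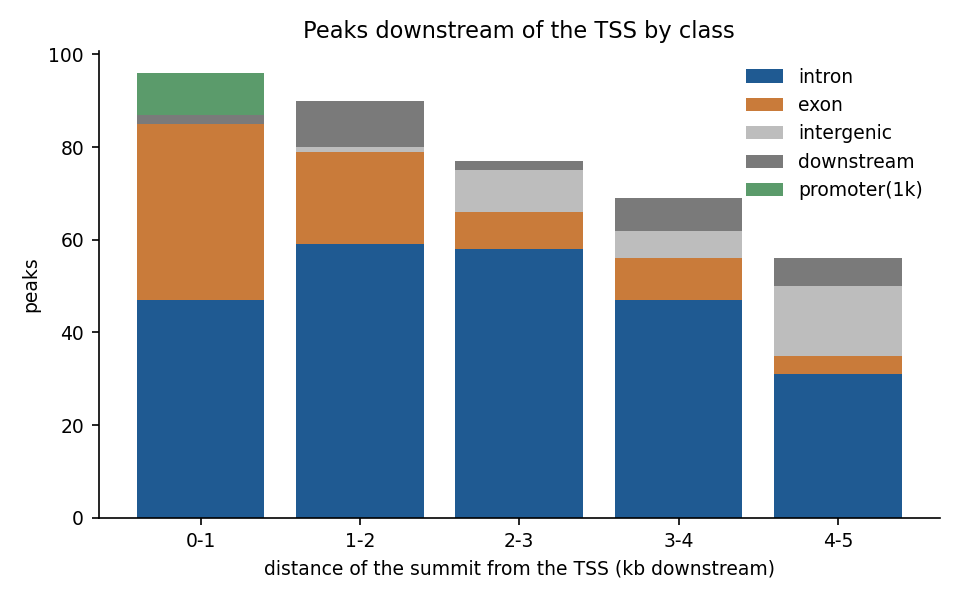
Number of peaks in each kb downstream of the TSS, up to 5 kb, stacked by the class the table gives. Intron peaks number 47, 59, 58, 47 and 31 from the nearest kb to the farthest, and exon peaks 38, 20, 8, 9 and 4.

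Most of the intron peaks were short and held few fragments. Their median length was 300 bp (95% interval 282 to 329 bp), with quartiles of 222 and 415 bp and a range of 191 to 3276 bp. The median length was 327 bp (307 to 343 bp) for the 702 intron peaks at 5 to 25 kb, 323 bp (300 to 340 bp) for the 612 beyond 25 kb, 304 bp (289 to 333 bp) for the 251 promoter peaks and 311 bp for all peaks. These intervals overlapped. There were 119 peaks under 300 bp, 49.2% against 47.0% of all peaks. There were 6 of 1000 bp or more, 2.48% against 2.34% of all peaks.

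The pileup is the number of ChIP fragments that cover the summit of a peak. Its median was 14 (13 to 15) near the TSS, against 16 (15 to 17) in the introns at 5 to 25 kb, 16 (15 to 17) in those beyond 25 kb, 15 (14 to 16) at promoters and 16 over all peaks. A pileup of 12 or less was found at 82 of the 242 peaks, 33.9%, against 26.2% at 5 to 25 kb, 27.6% beyond 25 kb, 32.7% at promoters and 28.3% of all peaks. At the other end, 14 peaks had a pileup of 40 or more, 5.79%, against 8.55%, 8.66%, 12.4% and 11.7% in the same order of sets. At such depth a single peak is loosely measured. A pileup of 14 has an exact Poisson 95% interval of 7.65 to 23.5 fragments, and one of 8, the lowest near the TSS, has 3.45 to 15.8.

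The fold enrichment sets the pileup against the local background taken from the input. Its median was 4.63 (4.39 to 4.84), with quartiles of 3.93 and 5.37 and a range of 1.84 to 11.7. The median was 4.84 (4.68 to 4.96) at 5 to 25 kb, 4.82 (4.60 to 4.85) beyond 25 kb, 4.53 (4.39 to 4.77) at promoters and 4.63 over all peaks. A fold enrichment of 6 or more was found at 41 peaks, 16.9% (12.7 to 22.2%), against 20.0% of all 3465 peaks. It was found at 23.8% of the intron peaks at 5 to 25 kb, 22.5% of those beyond 25 kb and 16.7% of promoter peaks. The share near the TSS was thus below that of the deeper introns and near that of promoters, and its interval held the share of all peaks. The highest value near the TSS, 11.7, compared with 33.9 at 5 to 25 kb, 19.3 beyond 25 kb and 16.5 at promoters. A −log10 q of 3 or more was found at 165 peaks, 68.2% (62.1 to 73.7%), against 76.9%, 75.7%, 70.5% and 74.2% in the order of sets above.

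**Figure D2:**
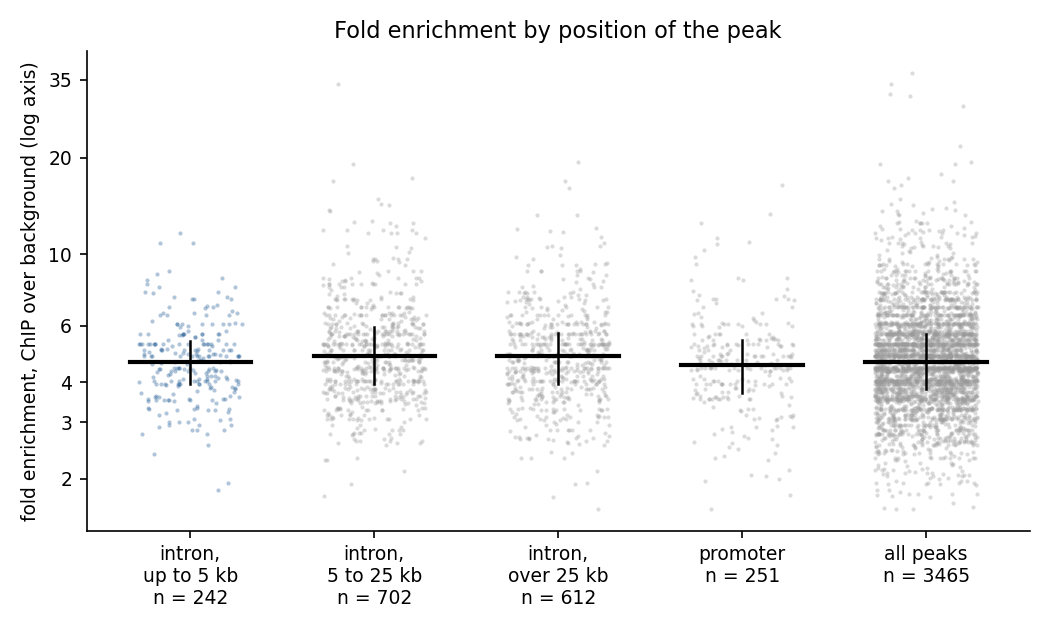
Fold enrichment of each peak on a log axis, for intron peaks up to 5 kb from the TSS, the 2 deeper intron sets, promoter peaks and all peaks. Each point is a peak, thick lines are medians and thin lines run between the quartiles. The medians lie between 4.53 and 4.84, and the highest peak near the TSS is at 11.7 while each other set reaches at least 16.5.

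The median fold enrichment was higher in each kb than in the one before it. It was 4.32 in the first kb (quartiles 3.88 and 5.16), 4.43 in the second, 4.63 in the third, 4.84 in the fourth and 5.04 in the fifth (3.96 and 6.12). Across the 242 peaks, distance and fold enrichment had a Pearson's r of 0.13 and a Spearman's rho of 0.14, which is weak in counts this sparse. Of the peaks beyond 3 kb, 21 of 78 reached 6-fold, 26.9% (18.3 to 37.7%). Up to 3 kb, 20 of 164 did, 12.2% (8.03 to 18.1%), and of all peaks 20.0%. These intervals cover counting error alone and nearly touch, and peaks of 1 library are not replicates. Median pileups per kb were 13 to 15 and median lengths 288.5 to 330 bp. Pileup did not rise with distance, with an r of -0.069 and a rho of -0.031. The median background plus 1, by which the fold is divided, was 3.04, 3.04, 3.53, 2.78 and 2.78 from the nearest kb to the farthest. Whether the rise in fold comes from the ChIP or from the background was not tested. Distance and length were nearly unrelated, with an r of 0.045 and a rho of 0.033.

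**Figure D3:**
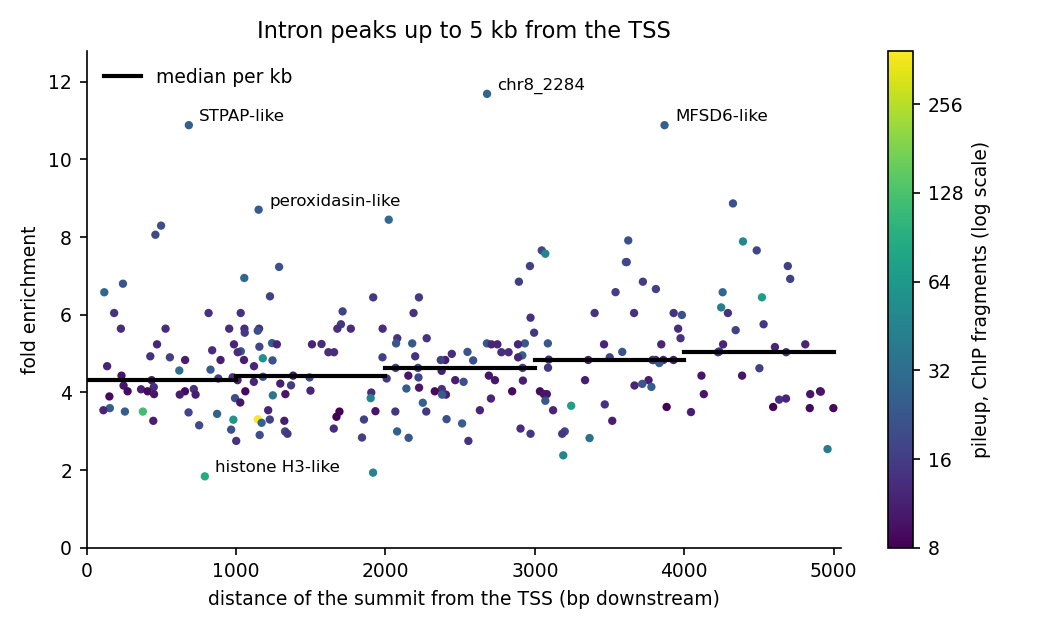
Fold enrichment of the 242 intron peaks against the distance of the summit from the TSS, coloured by pileup on a log scale, with the median of each kb as a black line. The medians run between 4.32 and 5.04, and the peaks above 10-fold lie at 684, 2680 and 3868 bp.

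Fold enrichment varied more closely with the background than with the pileup. Pileup and background had a Pearson's r of 0.96 and a Spearman's rho of 0.65 over the 242 peaks, background and fold enrichment had -0.24 and -0.48, and pileup and fold enrichment had -0.047 and 0.18. The points share their fragments, because the fold is computed from the pileup and the background. At 66 peaks, 27.3% against 24.5% of all peaks, the background plus 1, which is the divisor of the fold, was within 0.5% of the lowest value of the table, 2.48, and the fold there followed from the pileup alone. Those 66 peaks had a median pileup of 12 and a median fold of 5.24, while the other 176 had a median fold of 4.32. At this background a pileup of 8 gives 3.63-fold, 14 gives 6.05-fold and 28 gives 11.7-fold. At 12 peaks the background plus 1 was 10 or more, 4.96% against 10.2% of all peaks. Their pileups began at 32 and their median fold was 3.30, below that of the 242 peaks.

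**Figure D4:**
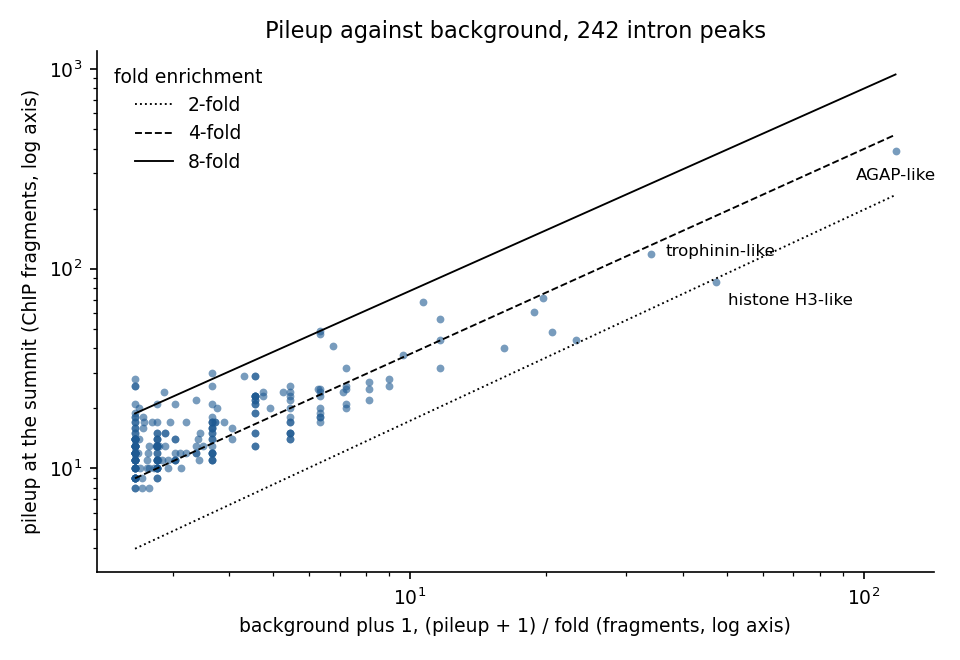
Pileup at the summit against the background plus 1 for the 242 intron peaks, both in fragments on log axes, with lines at 2-, 4- and 8-fold enrichment. A column of points stands at the lowest value of the background plus 1, 2.48, and the 3 labelled peaks of highest pileup, at 388, 118 and 86 fragments, have 3.31-, 3.51- and 1.84-fold.

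The table pairs each peak with 1 gene, and peaks are described below as lying in that gene. At 222 of the 242 peaks, the paired gene was matched in 1 or more of 4 databases, 91.7% (87.6 to 94.6%), against 93.6% at 5 to 25 kb, 98.9% beyond 25 kb, 85.7% at promoters and 88.9% of all peaks. A Swiss-Prot match was given at 170 peaks, 70.2% against 64.6% of all peaks, and 100 of these, 58.8%, had an e-value of 1e-50 or less. Human proteins made up 54 of the 170 matches, 31.8% (25.2 to 39.1%), and mouse proteins 28. A name from Swiss-Prot or KEGG was given at 196 peaks, 26 had a match in TrEMBL or InterPro alone, and 20 had none. The gene names below are therefore best matches in other species, and the roles given with them are known mainly from mammals. Swiss-Prot and KEGG name different proteins for some of the genes, and both names are given for the main ones. Positions are on the authors' unpublished genome build, counted from 1.

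The genes next to the peaks with the highest fold enrichment did not share 1 function. The highest stood in M.coruscus_chr8_2284 (chr8:103990267-103991899), 2680 bp from the TSS, with a pileup of 28 (18.6 to 40.5), a length of 1633 bp and 11.7-fold enrichment. Swiss-Prot matches this gene to an uncharacterized C10orf107 homolog and KEGG to TBC1D24, a protein of vesicle traffic. The next stood in M.coruscus_chr2_1125 (chr2:46109531-46109828), which is matched to the speckle targeted poly(A) polymerase, which uridylates U6 RNA and polyadenylates some mRNAs. It lay 684 bp from the TSS with a pileup of 26 (17.0 to 38.1) and 10.9-fold enrichment. M.coruscus_chr2_1085 (chr2:44877093-44877540), matched to the membrane transporter family member MFSD6, had the same pileup and fold at 3868 bp. The Poisson intervals of these 3 pileups overlap, so their order is not settled by the counts. All 3 stood over the lowest background.

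Below 10-fold, peaks of 7.26 to 8.87-fold lay in genes of several cell functions. A peak of 1003 bp, 4326 bp into the CEP131-like gene M.coruscus_chr10_0473, reached 8.87-fold with 21 fragments. CEP131 is a protein of the centriolar satellites and takes part in cilium formation. The ORC3-like gene M.coruscus_chr9_0194 had 8.45-fold with 30 fragments at 2022 bp. ORC3 is a subunit of the complex that marks origins of DNA replication. A PIGP-like gene, M.coruscus_chr13_0168, for a subunit of the enzyme that starts the synthesis of GPI anchors, had 8.06-fold at 460 bp. A ficolin-2-like gene, M.coruscus_chr11_2233, had 7.92-fold at 3625 bp, and ficolins are lectins of innate immunity that bind acetylated sugars. A CFDP1-like gene, M.coruscus_chr5_2637, a nuclear GTP-binding protein by KEGG, had a peak of 1901 bp with 49 fragments (36.3 to 64.8) and 7.89-fold at 4393 bp. Deeper intron peaks of this gene, at 5719 to 14895 bp, had 3.85- to 19.1-fold, the highest with 69 fragments. The 49 fragments were the largest pileup among the 15 named peaks with the highest fold. Further peaks of this group lay in genes matched to CCDC171 (7.36-fold), the RNA-editing enzyme ADAR (7.36-fold) and neuroguidin (7.26-fold). M.coruscus_chr4_0076, HSPA12B by Swiss-Prot and cullin 4 by KEGG, also had 7.26-fold.

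The highest pileups lay over high background. The peak in M.coruscus_chr11_2521 (chr11:100129931-100130464), named by KEGG as an Arf-GAP with GTPase, ANK repeat and PH domains, had 388 fragments (350 to 429) at 1146 bp, and its fold was 3.31. The trophinin-like gene M.coruscus_chr4_0476, coatomer subunit beta' by KEGG, had 118 fragments and 3.51-fold at 376 bp. A histone H3-like gene, M.coruscus_chr5_1644, had 86 fragments and the lowest fold of the 242 peaks, 1.84. Histone genes occur in many near-identical copies, and the study's methods kept uniquely mapped reads. Whether either bears on this pileup or fold was not tested. An iduronate 2-sulfatase-like gene, M.coruscus_chr4_0403, for a lysosomal enzyme that degrades heparan and dermatan sulfate, had 71 fragments and 3.66-fold. The fifth, in the C16orf72-like gene M.coruscus_chr10_0770, stood apart with 6.45-fold at 68 fragments (52.8 to 86.2).

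The longest peak was 3276 bp in M.coruscus_chr3_2241, named by KEGG as cyclin-G-associated kinase, which uncoats clathrin vesicles. It had 37 fragments and 3.93-fold, below the median fold of the 242 peaks. The CFDP1-like and C10orf107-like genes above followed by length. An ANKRD49-like gene, M.coruscus_chr6_0216, had 1414 bp with 15 fragments, and a collagen XII-like gene, M.coruscus_chr14_1619, had 1049 bp with 56. Of the 6 peaks of 1000 bp or more, 3 reached 6-fold. Of all peaks of any length 20.0% did, and the share among all long peaks was not computed. Over the 242 peaks, length and pileup had a Pearson's r of 0.18 and a Spearman's rho of 0.43, and length and fold enrichment an r of 0.22 and a rho of 0.092.

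Among peaks of named genes nearest to the TSS, a glycerol kinase gene by its KEGG name, M.coruscus_chr8_0128, had 29 fragments and 6.58-fold at 118 bp. Glycerol kinase brings glycerol into lipid and sugar metabolism. A KIDINS220-like gene followed at 137 bp with 4.68-fold, a BTBD16-like gene at 152 bp with 3.90-fold and a CEP162-like gene at 155 bp with 3.60-fold. A gene matched to EAF3, a subunit of a histone acetyltransferase complex, had 6.05-fold at 184 bp. At the outer edge, the last peaks inside 5000 bp were those of a glucosidase 2 beta-like gene at 4998 bp with 3.60-fold, M.coruscus_chr4_2762 at 4959 bp with 2.54-fold and a gene at 4914 bp that is SLIP-GC by Swiss-Prot and IRAK4 by KEGG, with 4.02-fold. The first peaks outside were at 5034, 5035 and 5045 bp, with 3.54-, 5.20- and 5.24-fold. 

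Antioxidant and detoxification genes, the family Nrf2 is best known for, held 8 of the 242 peaks in 7 genes, 3.31% (1.68 to 6.39%), against 1.79% (1.40 to 2.29%) of all peaks. The median fold of the 8 was 4.62, against 4.63 for the same list over all peaks, and 1 of them reached 6-fold. That one lay in a peroxidasin-like gene, M.coruscus_chr11_2302 (chr11:89218277-89218926), with 24 fragments (15.4 to 35.7) and 8.71-fold at 1151 bp. The Swiss-Prot match of this gene had an e-value of 7e-16, and KEGG names it only a peroxidase. Peroxidasin is a haem peroxidase that cross-links collagen IV in basement membranes. A Cu-Zn superoxide dismutase gene, M.coruscus_chr9_0662 (chr9:27930688-27931104 and chr9:27931314-27931832), had 2 peaks. They lay at 717 and 1180 bp, with 14 (7.65 to 23.5) and 23 fragments (14.6 to 34.5) and 4.09- and 4.41-fold. This enzyme turns superoxide into hydrogen peroxide and oxygen. A mitochondrial thioredoxin-like gene, M.coruscus_chr10_0476, had 17 fragments and 4.91-fold at 557 bp. Thioredoxin reduces disulfides and supplies peroxiredoxins. A cytochrome P450 2E1-like gene, M.coruscus_chr3_0474, which KEGG places in subfamily 2J, had 10 fragments (4.80 to 18.4) and 3.96-fold at 3060 bp. Its Swiss-Prot match was weak, with an e-value of 4e-07.

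Like every list member, the other 3 of the 8 entered by a word of their names. M.coruscus_chr3_0758 and M.coruscus_chr1_1879 are peroxidases by KEGG alone, while Swiss-Prot matches them to interferon-induced protein 44 and to an uncharacterized protein, and they had 4.91- and 4.84-fold. M.coruscus_chr7_0941 is a protein-tyrosine sulfotransferase, which modifies secreted proteins, and had 4.12-fold. By Swiss-Prot names alone the list held 4 peaks. The list missed 2 genes of methionine sulfoxide reductases, chosen here after their values were seen. These enzymes repair oxidized methionine. The MSRB1-like gene M.coruscus_chr10_0363 had 3.82-fold at 4635 bp and the MSRB3-like gene M.coruscus_chr3_2954 had 3.0-fold at 1328 bp.

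Of all 16 lists, those of the cytoskeleton and of chromatin held the most intron peaks near the TSS. Genes of the cytoskeleton, motors and cilia had 19 peaks, 7.85% (5.08 to 11.9%), against 5.34% of all peaks, with a median fold of 4.91 against 4.43. Of these, 5 reached 6-fold. Beside CEP131 and CCDC171 they were CCDC40 (6.48-fold), which is needed to assemble dynein arms of motile cilia, the centriole protein POC5 (6.45-fold) and an alpha-tubulin (6.19-fold), which was named after its value was seen. The list also took in 2 SWI/SNF chromatin remodelling genes through the word actin.

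Genes of chromatin, DNA replication and repair had 17 peaks in 16 genes, 7.02% (4.43 to 11.0%), against 4.24% of all peaks, with a median fold of 4.39 against 4.45. The intervals of the shares overlapped, and 2 of the 17 reached 6-fold. Beside ORC3 this was DDX1 (6.05-fold at 3400 bp), an RNA helicase that acts at DNA breaks. XRCC3, which takes part in recombination repair of breaks, had 5.40-fold at 2079 bp. SMARCAD1 by its Swiss-Prot name, a chromatin remodeller, had 5.26-fold at 3087 bp with 23 fragments. The word list missed, among others, the gene matched to EAF3 (6.05-fold at 184 bp) and a gene named replication factor A1 by KEGG. It took in a splicing helicase gene, M.coruscus_chr2_2190, matched to PRP28. These genes were picked after their values were seen.

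Metabolic enzymes of mitochondria and the peroxisome had 15 peaks, 6.20% against 4.70% of all peaks, with a median fold of 5.26 against 4.68, and 5 of them reached 6-fold. M.coruscus_chr6_0031, lipase maturation factor 2 by Swiss-Prot and NAD kinase by KEGG, had 7.66-fold at 4485 bp. NAD kinase makes NADP, from which the reducing power of antioxidant enzymes comes. The mitochondrial carrier gene M.coruscus_chr10_1059, matched to the Graves disease carrier, had 6.95-fold at 1055 bp, and the mitochondrial ribosomal protein S15 gene M.coruscus_chr9_2307 had 6.66-fold at 3810 bp. The peroxidasin-like and glycerol kinase genes were the other 2. This list was built from words in names, so it holds more than its title. The carrier and the ribosomal protein are not enzymes, and peroxidasin acts in basement membranes. It also took in M.coruscus_chr11_2152, zonadhesin by Swiss-Prot and MAP7 domain-containing protein 1 by KEGG. RNA processing and translation had 13 peaks, 5.37% against 3.41% of all peaks, with a median fold of 4.43 in both. The poly(A) polymerase, neuroguidin and ribosomal protein S15 genes were its 3 peaks past 6-fold, and CMTR2, which methylates the mRNA cap, had 5.76-fold at 1702 bp.

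Solute carriers and other transporters had 6 peaks, 2.48% against 2.91% of all peaks, and their median fold was 5.91 against 4.43. The MFSD6-like gene, the mitochondrial carrier and an ABCD2-like gene, M.coruscus_chr1_2785, were the 3 past 6-fold. ABCD2 carries very long chain fatty acids into peroxisomes, and its peak had 29 fragments (19.4 to 41.6) and 6.58-fold at 4257 bp. An organic cation transporter gene, M.coruscus_chr8_0107, had 5.24-fold at 471 bp. Ion channels and G protein-coupled receptors had 8 peaks, 3.31% against 2.54%, with a median fold of 4.54 against 4.43. Their 2 highest lay in a nicotinic acetylcholine receptor alpha-3-like gene, M.coruscus_chr8_0285 (6.80-fold at 243 bp), and an orexin receptor 2-like gene (6.58-fold at 3540 bp). A GPR125-like gene had 5.59-fold and a nicotinic receptor alpha-7-like gene 5.05-fold.

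Protein kinases and phosphatases had 14 peaks, 5.79% against 5.40% of all peaks, and their median fold was 4.04 against 4.68. The highest was a gene named by KEGG as a homeodomain interacting protein kinase, M.coruscus_chr8_0440, with 20 fragments (12.2 to 30.9) and 8.30-fold at 498 bp. These kinases phosphorylate transcription factors and their partners. Another gene of that name, M.coruscus_chr6_0245, had 5.27-fold at 1241 bp. A TTK-like gene, for a kinase of the spindle checkpoint, had 6.85-fold at 3723 bp. The word list missed, among others, cyclin-G-associated kinase, a cdc2-inhibitory kinase gene and the gene named IRAK4 by KEGG. It took in the glucosidase 2 beta-like gene through its KEGG name, a kinase C substrate. The FANK1-like gene M.coruscus_chr8_0557 (6.05-fold) entered through the word phosphatase in its KEGG name. Ubiquitin, SUMO and TRIM genes had 12 peaks, 4.96% against 5.57%, with a median fold of 4.25 against 4.43. The highest after the HSPA12B or cullin 4 gene was M.coruscus_chr4_2464, TRIM28 by a weak Swiss-Prot match and TRIM2/3 by KEGG, with 6.05-fold, and SENP6, which removes SUMO chains, had 4.76-fold. Transcription factors and zinc fingers had 8 peaks, 3.31% against 3.67%, with a median fold of 5.24 against 4.84. Only DCAF6 reached 6-fold in that list, at 6.93-fold, and it is a cofactor of nuclear receptors and of the cullin 4 ligase rather than a DNA-binding factor. ZC3H13, of the complex that methylates adenosines in mRNA, had 5.64-fold and ZNF624 had 5.26-fold.

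Vesicle traffic and small GTPases had 10 peaks, 4.13% against 3.75%, with a median fold of 4.70 against 4.64. The peak of M.coruscus_chr8_2284 was the one past 6-fold, and an interferon-inducible GTPase 5-like gene followed with 5.93-fold. Extracellular matrix and adhesion genes had 9 peaks, 3.72% against 5.45%, with a median fold of 4.88 against 4.84. The MARCO-like gene and M.coruscus_chr8_0557, FANK1 by Swiss-Prot and a phosphatase 6 regulatory subunit by KEGG, both had 6.05-fold with 14 fragments. MARCO is a scavenger receptor of macrophages with a collagen-like stalk, and KEGG names its gene a type II collagen. Glycan and lysosomal enzymes had 8 peaks, 3.31% against 2.16%, with a median fold of 4.04 against 4.84, and the PIGP-like gene led them, before an alpha-mannosidase 2-like gene of Golgi glycan trimming at 5.09-fold. Innate immunity and apoptosis had 6 peaks, 2.48% against 1.67%, with a median fold of 4.52 against 4.43. Its word list missed the ficolin-2-like gene.

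Proteases and inhibitors had 3 peaks, 1.24% against 2.14% of all peaks, with a median fold of 4.03 against 4.82 and none past 6-fold. Their genes were SENP6, aspartyl aminopeptidase and SENP2. Transposon-derived genes also had 3, 1.24% against 1.30%, with a median fold of 3.63 against 4.43, and 1 of them, the RPRD1B-like gene M.coruscus_chr5_0329, entered by a word of its KEGG name alone. In all, 135 of the 242 peaks were in at least 1 list, and 61 peaks of named genes were in none. In 15 of the 16 lists the 95% interval of the share near the TSS held the share of all peaks, and the exception was the list of chromatin, DNA replication and repair. By Swiss-Prot names alone that list held 9 peaks near the TSS, 3.72% (1.97 to 6.92%), against 2.60% of all peaks, and its interval then held the share of all peaks. Under the same setting the cytoskeleton list and the RNA processing list became exceptions. Their shares were 7.02% (4.43 to 11.0%) against 4.16% of all peaks, and 4.55% (2.56 to 7.95%) against 1.96%.

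**Figure D5:**
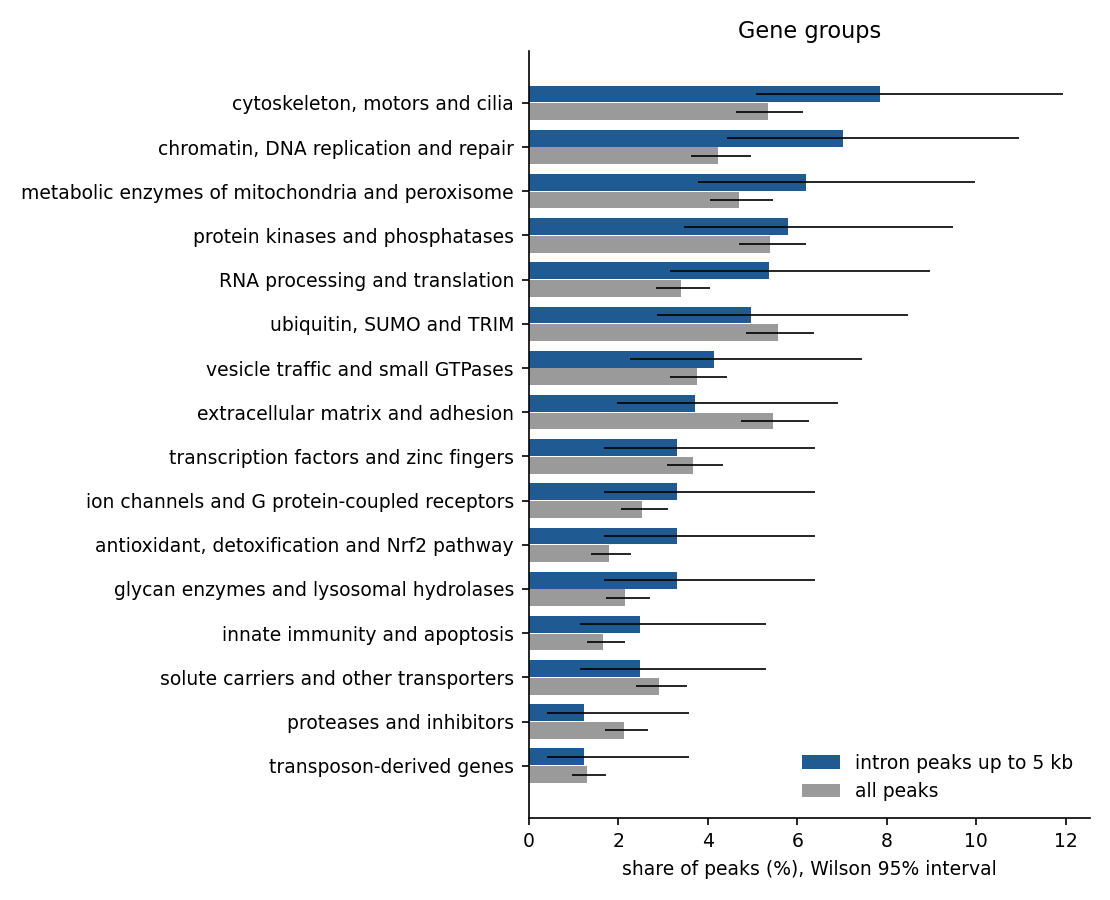
Share of intron peaks up to 5 kb from the TSS (blue, upper bar) and of all peaks (grey, lower bar) whose gene is in each of 16 lists, in percent, with Wilson 95% intervals as thin lines. The cytoskeleton list leads near the TSS at 7.85% against 5.34% of all peaks, and the intervals of both bars overlap in every list.

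In the 12 genes with 2 intron peaks near the TSS, the summits were 463 to 3277 bp apart. The peak farther from the TSS had the higher fold in 10 of the 12 genes and the higher pileup in 7. In the CEP131-like gene the nearer peak had 3.27-fold and the farther 8.87-fold, at a distance of 3003 bp from each other. M.coruscus_chr9_2366, without a name, had 4.63-fold at the nearer and 7.57-fold at the farther peak, 852 bp apart. The ADAR-like gene had 4.00- and 7.36-fold, 1710 bp apart. The nicotinic receptor alpha-3-like gene ran the other way, with 22 fragments and 6.80-fold at the nearer peak and 9 fragments and 4.03-fold at the farther one. The C16orf72-like gene had 2.83- and 6.45-fold, 1154 bp apart. Over the 12 genes the pileups of the 2 peaks differed by 2 to 36 fragments, and no peak was measured more than once.

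Most of the 230 genes had no peak elsewhere. The same was not counted for the genes of other peaks, so the gene counts here are not a trait of these genes. Of them, 176 had none and 54 had 98 further peaks, of which 47 were deeper intron peaks in 29 genes, 27 intergenic, 9 in exons, 2 downstream of the gene and 13 at promoters of 12 genes. Another summit lay within 10 kb of 71 of the 242 peaks, 29.3% (24.0 to 35.4%), against 36.0% of intron peaks at 5 to 25 kb, 31.7% beyond 25 kb, 39.8% of promoter peaks and 34.9% of all peaks.

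Of the 12 genes with a promoter peak as well, 6 were named by the fold of the intron peak. In the MARCO-like gene M.coruscus_chr10_0079 the intron peak at 3929 bp and the promoter peak 2569 bp upstream both had 14 fragments and 6.05-fold. The ZNF208-like gene M.coruscus_chr11_0405 had 5.24-fold at its intron peak, against 3.54-fold at 333 bp and 6.12-fold at 2931 bp upstream. M.coruscus_chr8_0317, matched to Nef-associated protein 1, had 4.93-fold in the intron, against 3.95-fold at the promoter. M.coruscus_chr5_0747, which has no name, had 4.91-fold with 12 fragments in the intron, against 13.4-fold with 36 fragments over 1209 bp at the promoter. The collagen XII-like gene had 4.88-fold with 56 fragments in the intron, against 5.14-fold with 27 at the promoter. M.coruscus_chr1_1879 had 4.84-fold in the intron, against 4.68-fold at the promoter. Over all 12 genes, with the highest peak of each kind, the intron fold was the higher in 6, the promoter fold in 5, and both were equal in 1. The difference was largest in M.coruscus_chr5_0747. The AGAP-like gene with the highest pileup also belonged to the 12, with 388 fragments in the intron against 120 at the promoter, and 3.31-fold against 2.51-fold.

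None of the 242 peaks lay in a gene named Nrf2, Keap1 or Maf. How many of all peaks lie in such genes was not counted, so this is not a result about the pathway.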

How the data were processed

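Peaks came from 1 Nrf2 ChIP library and 1 input library of *M. coruscus* digestive gland. Per the submitters' processing notes, reads were trimmed with Trimmomatic 0.36, checked with FastQC, aligned with Bowtie2 2.5.1 and called with MACS3 3.0.0a7. For duplicate handling and the q threshold, nothing is given in the sources used here, and library depth was not used. In the table deposited by the authors, the signal column holds the ChIP fragment pileup. The fold enrichment deposited by the authors is the ratio of pileup plus 1 to the local background plus 1, and their q is a −log10 value. The authors also annotated each peak with its class, TSS distance, gene and database matches. The distance runs from the summit, as the summit gap equalled the distance gap in all 12 genes with 2 such peaks. Because positions lie on an unpublished build, no sequence was used.

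Members were the peaks classed as intron with a distance of 5000 bp or less. Background plus 1 was computed as (pileup + 1) / fold, and 6-fold was the threshold for counts. The 16 lists were matched as words in Swiss-Prot and KEGG names, and a gene can be in several. The members and lists were chosen with earlier results of these data known. Named genes were the 15 named members of highest fold, the 5 of highest pileup, the 5 longest, the 5 named nearest to the TSS, 5 genes with 2 members, up to 4 per list, every antioxidant gene, the 3 peaks on each side of 5000 bp and up to 6 genes with a promoter peak. Not every gene so chosen is described. With 1 library a group no test was possible. Shares carry Wilson intervals, medians order-statistic intervals and pileups exact Poisson intervals, all at 95%. The interval functions were tested on simulated data. Alternatives were a −log10 q of at least 3, 1 peak per gene, leaving out the 10% of peaks over the highest background, a reach of 3000 bp and Swiss-Prot names alone. Values were computed in Python 3.11.15 with SciPy 1.17.1, NumPy 2.4.6 and pandas 2.3.3, and plots drawn with Matplotlib 3.10.9.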

Additional observations from a re-analysis of the deposited data

How the results depend on the processing

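With peaks of −log10 q of at least 3, the median fold was 5.06, the median pileup 17, the median length 335 bp and the share of at least 6-fold 24.8%, since this threshold removes low peaks by construction. Counted by gene, the 230 genes with a near-TSS intron peak made up 9.03% of the genes with any peak. With a reach of 3000 bp the near-TSS intron peaks made up 4.73% of all peaks. The share within 1 kb was then 28.7% and the share of at least 6-fold 12.2%. The other values under these alternatives, and all 6 without the 10% of peaks of highest background, moved by less than their intervals. With Swiss-Prot names alone, 8 of 16 lists moved by over 1.5 times. The counts were 4 for antioxidant genes, 5 for channels and receptors, 7 for kinases and phosphatases, 9 for chromatin, 7 for ubiquitin, 4 for vesicle traffic, 3 for extracellular matrix and 9 for metabolic enzymes. Over all peaks the same 8 lists shrank as well. Antioxidant genes went from 62 to 37, kinases and phosphatases from 187 to 109, chromatin from 147 to 90 and ubiquitin from 193 to 108. Channels and receptors went from 88 to 68 and metabolic enzymes from 163 to 125. No paired analysis was possible because there was 1 ChIP and 1 input library. For the same reason no library could be left out. Low pileups limit single peaks, as a pileup of 10 has a Poisson interval of 4.80 to 18.4.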

Other observations

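Some values belong to genes that the word lists did not catch, and they were chosen after their values were seen. A GABA receptor-like gene, M.coruscus_chr4_2409, had a peak of 4.84-fold at 659 bp. A gene matched to the BLM helicase, M.coruscus_chr6_0006, which resolves recombination intermediates, had 5.64-fold at 229 bp. An enolase-like gene of glycolysis, M.coruscus_chr13_0064, had 3.27-fold at 446 bp in the intron, against 4.83-fold at 569 bp upstream. An adhesive plaque matrix protein gene, M.coruscus_chr13_1986, RNA polymerase II subunit RPB1 by KEGG, had 2 intron peaks of 3.96- and 5.17-fold, 3277 bp apart. Proteins of this family form the plaques by which mussels hold on to rock.

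The intervals of 8 of the 242 peaks were long enough to reach the TSS on at least 1 strand, and 1 of these reached it whichever strand its gene is on. For some of the 8, another peak of the gene gives the strand. By it, the 3276 bp peak of M.coruscus_chr3_2241 and the peak of the BTBD16-like gene span the TSS. The peak of the nicotinic receptor alpha-3-like gene at 243 bp does not.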
